A study of Mus musculus with 4 samples.

Results

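The genes described here are 10 genes of the immediate early response and its close targets: the Fos family members Fos, Fosb and Fosl2, the Jun family members Jun, Junb and Jund, the zinc finger factors Egr1 and Egr2, the orphan nuclear receptor Nr4a1 and the secreted synaptic protein Nptx2. They were taken by name, and every probe set that the array annotation maps to exactly 1 gene symbol was kept, which gave 10 of the 8251 named genes and 13 of the 12422 probe sets. Their signals were read in 4 samples of total RNA from mouse hippocampus (Mus musculus), 1 Affymetrix MG_U74Av2 array each. The series calls the samples replicates, and the labels give the tissue and an identifier but no strain, sex, age, treatment or pooling, so that the samples form 1 group and no groups were compared. No label says that they came from separate animals, and the spread between them may be technical in part. They are called samples 1 to 4, numbers that have no order.

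Immediate early genes are transcribed within minutes of synaptic activity, growth factor signals or stress, without the need for new protein. Kinases of the ERK, p38 and calcium pathways act on factors already bound at their promoters, chiefly SRF with its ETS partners at CArG boxes and CREB at cyclic AMP response elements. Fos proteins pair with Jun proteins through a leucine zipper to form AP-1, which binds TGANTCA, while Egr factors bind GC-rich sites. In the hippocampus these genes are widely used as markers of neurons that were recently active, and Nptx2, a pentraxin that gathers AMPA receptors at excitatory synapses onto interneurons, is made in response to such activity.

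In the probe set with the highest mean, Fos, Fosb, Junb, Jund and Nr4a1 each read highest in sample 4, whereas Jun read lowest there. A second, dim Fos probe set was highest in sample 1. A gene was analysed when its mean signal was among the upper 50% of probe sets, and 8 of the 10 genes passed, with Fosl2 and Egr2 below. Of the 8, 5 were highest in sample 4, against 31.1% of the 6210 analysed probe sets, and 7 exceeded the mean of the remaining samples there, against 52.2%. The median of their log2 deviations from the mean of the remaining samples was 0.60 in sample 4, against 0.02 over all analysed probe sets. It was 0.17 in sample 1, -0.26 in sample 2 and -0.31 in sample 3, and the corresponding values over all probe sets were 0.01, 0.01 and 0.01. In sample 1, 5 of the 8 genes lay above the mean of the others (51.4% of all). In sample 2, 5 lay below it (48.8% of all), and in sample 3 also 5 (48.9% of all). Over all 10 genes, without the filter, the medians were 0.055, -0.0044, -0.25 and 0.59 in samples 1 to 4, so that the median of sample 2 was low only with the filter. The array of sample 4 differed most from the rest over all analysed probe sets: 5.68% to 7.44% of them differed at least 2-fold between sample 4 and another sample, against 3.30% to 4.41% between samples 1, 2 and 3. The part of this in the members' values was not tested. These genes were chosen with earlier results of the same arrays known, and the counts describe them. Fos is among the 8 through its high values and was not analysed without sample 4, so its place in these counts is no support.

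The promoters of the genes that shared their highest sample, and that of Jun, which did not share it, are shown because some known control elements of this gene class lie close to the start. A stretch of the Egr2 promoter is added for its CArG box, although Egr2 was too dim for analysis. RefSeq entries (build GRCm38.p6), from 250 bases before to 50 bases after the annotated start, were used for 8 of the 10 genes. Egr1 and Nptx2 are not among them, so the motif counts below do not cover these genes. Capitals mark TGACG, the core of a cyclic AMP response element, the TATAAA box, the Egr site GCGNGGGCG and the Jun element TGACATCA, each searched on both strands, and the CArG box in the Egr2 stretch. TGACG is also part of the complete element TGACGTCA. Sequences run 5′ to 3′ on the strand of the gene.
Fos (chr12:85473640-85473939, plus strand): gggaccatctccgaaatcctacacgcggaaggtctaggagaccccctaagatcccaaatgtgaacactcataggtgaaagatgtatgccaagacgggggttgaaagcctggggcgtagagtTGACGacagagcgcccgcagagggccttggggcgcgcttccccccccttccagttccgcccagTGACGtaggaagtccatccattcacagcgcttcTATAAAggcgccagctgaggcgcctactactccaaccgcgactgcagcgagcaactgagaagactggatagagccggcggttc
Junb (chr8:84978699-84978998, minus strand): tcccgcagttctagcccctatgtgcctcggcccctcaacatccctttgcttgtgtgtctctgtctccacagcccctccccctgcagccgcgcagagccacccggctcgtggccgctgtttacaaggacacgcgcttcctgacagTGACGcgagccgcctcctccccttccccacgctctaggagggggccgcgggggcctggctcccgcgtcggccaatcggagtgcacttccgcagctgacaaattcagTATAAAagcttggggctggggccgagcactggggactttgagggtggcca
Fosb (chr7:19309996-19310295, minus strand): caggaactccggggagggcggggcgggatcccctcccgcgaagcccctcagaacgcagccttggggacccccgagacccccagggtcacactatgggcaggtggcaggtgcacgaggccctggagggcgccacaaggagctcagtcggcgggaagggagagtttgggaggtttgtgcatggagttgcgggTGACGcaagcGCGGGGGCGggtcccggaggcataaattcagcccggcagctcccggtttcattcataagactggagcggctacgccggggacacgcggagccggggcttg
Nr4a1 (chr15:101266596-101266895, plus strand): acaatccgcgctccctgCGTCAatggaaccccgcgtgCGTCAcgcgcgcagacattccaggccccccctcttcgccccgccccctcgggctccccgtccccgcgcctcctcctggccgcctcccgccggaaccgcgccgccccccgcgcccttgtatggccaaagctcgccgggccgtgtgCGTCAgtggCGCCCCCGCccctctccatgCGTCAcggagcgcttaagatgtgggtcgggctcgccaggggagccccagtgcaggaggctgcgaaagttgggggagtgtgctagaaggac
Jund (chr8:70697489-70697788, plus strand): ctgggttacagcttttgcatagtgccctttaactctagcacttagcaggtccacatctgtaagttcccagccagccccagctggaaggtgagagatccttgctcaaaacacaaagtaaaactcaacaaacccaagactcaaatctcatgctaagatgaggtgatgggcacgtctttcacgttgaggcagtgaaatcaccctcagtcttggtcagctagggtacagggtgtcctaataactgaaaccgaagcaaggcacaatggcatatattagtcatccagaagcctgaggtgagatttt
Jun (chr4:95052173-95052472, minus strand): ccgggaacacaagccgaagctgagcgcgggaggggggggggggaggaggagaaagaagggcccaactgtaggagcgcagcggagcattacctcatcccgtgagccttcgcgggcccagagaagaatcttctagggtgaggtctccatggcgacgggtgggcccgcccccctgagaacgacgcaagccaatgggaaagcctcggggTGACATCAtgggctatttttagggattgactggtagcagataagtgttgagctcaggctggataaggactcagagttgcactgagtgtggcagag
Egr2 (chr10:67537789-67537828, plus strand): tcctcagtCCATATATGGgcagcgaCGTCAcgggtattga

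With positions counted from the start, Fos held TGACG at -129 and -66 and a TATAAA box at -33. Fosb held TGACG at -60 and an Egr site at -50. Junb held TGACG at -106, and its TATAAA box began at the annotated start itself. Nr4a1 held 4 copies of TGACG on the opposite strand and an Egr site. The Jun window held no TGACG but TGACATCA at -45. Egr2 has 5 annotated starts, and the stretch shown, from -80 to -41 of the third, carries a CArG box and TGACG on the opposite strand. The Fosl2 window held an Egr site only, and the Jund window none of the motifs searched. TGACG was found for 5 of the 8 genes, against 20.8% of all 32851 promoter windows. A gene was counted when any of its windows held the motif, and Egr2 has 5, whereas the shares are of single windows. The shares are also not matched for base content. The members' windows were 56% to 72.3% G and C, except that of Jund at 46.7%, against a median of 52.7% over all windows. The part of this in the motif counts was not tested. The Egr site was found for 3 of the 8 (5.55% of windows), the CArG box for 1 (1.63%), TATAAA for 2 (13.6%) and TGACATCA for 1 (3.62%). The complete element TGACGTCA (1.79%), the AP-1 site TGANTCA (7.81%) and AAAGGTCA (1.51%), the site that Nr4a proteins bind as monomers, were found for 0 of the 8. A match of letters describes the window and shows no binding.

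Fos, which encodes the founding member of its family and is transcribed in short bursts, varied most. Its signal was 157, 55.5, 67.7 and 354 normalized units in samples 1 to 4, a mean of 158 ± 138 (SD, n = 4). Samples 2 and 3 were low and close together, sample 1 was intermediate and sample 4 was high. The range was 6.38-fold, wider than that of 99.3% of the analysed probe sets. In sample 4 Fos lay 4.22-fold above the geometric mean of the other samples. Fos passed the filter on mean signal, whose lowest accepted mean was 104 units, because of its high values, and it did not pass when sample 4 was left out. Its spread over the 3 remaining samples was then 1.44 log2 units, against 2.67 with all 4.

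A second Fos probe set read near the floor of 27.7 units, below which values are not ordered. It gave 46.3 units in sample 1 and 35.95 in sample 4, and lay below the floor in samples 2 and 3. Both Fos probe sets thus had samples 1 and 4 above samples 2 and 3, but the second did not place sample 4 above sample 1. Its mean was too low for analysis.

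Fosb, whose spliced short form accumulates in neurons after repeated activity, gave 291, 160.5, 269 and 379 units, with a mean of 275 ± 89.9 (SD, n = 4). Sample 2 was the low one and the others were closer together, so that the range of 2.36-fold was 0.50 log2 units without sample 2, against 1.24 with it. The array signal does not separate the Fosb splice forms in these files.

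Fosl2 encodes Fra-2, a Fos family protein that persists longer after stimulation. It read 76.1 and 76.5 units in samples 2 and 3 and lay below the floor in samples 1 and 4. The range was at least 2.76-fold with this floor and 0.27 log2 units with the floor at the 40th percentile of signals. Signals this low cannot be told from background, and no pattern is read from them.

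Junb, a Jun protein that restrains Jun at many AP-1 sites, came closest to Fos. The probe set with the higher mean gave 293, 189, 164 and 573 units (305 ± 187, SD, n = 4), a range of 3.50-fold. Sample 4 stood 2.75-fold above the geometric mean of the others, and without it the range was 0.83 log2 units, against 1.81 with it. The second Junb probe set gave 99.9, 82.9, 142 and 267 units, a range of 3.22-fold, and stood 2.53-fold above in sample 4. Both Junb probe sets were highest in sample 4, while the first was lowest in sample 3 and the second in sample 2. By the maker's naming, they are of kinds that could not meet all rules of probe selection, and the annotation gives both the same source sequence.

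Jun, the Jun family member that can activate AP-1 targets as a homodimer, read 347, 359.9, 398 and 203 units over samples 1 to 4 (327 ± 85.8, SD, n = 4). Samples 1 to 3 lay within 0.20 log2 units of each other, and sample 4 was 1.82-fold below their geometric mean. The log2 deviation of Jun in sample 4 was -0.86, while those of Fos and Junb were 2.08 and 1.46. These 3 directions in sample 4 were the same under median scaling, with the deposited values and with each of the other samples left out. Jund, the steadily transcribed member of the family, gave 3448, 4254, 4851 and 5828 units (4596 ± 1003, SD, n = 4). Its range of 1.69-fold was wider than that of 71.6% of the analysed probe sets. Probe sets of such high signal vary little, and its SD was 2.27 times that of the trend.

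**Figure D1:**
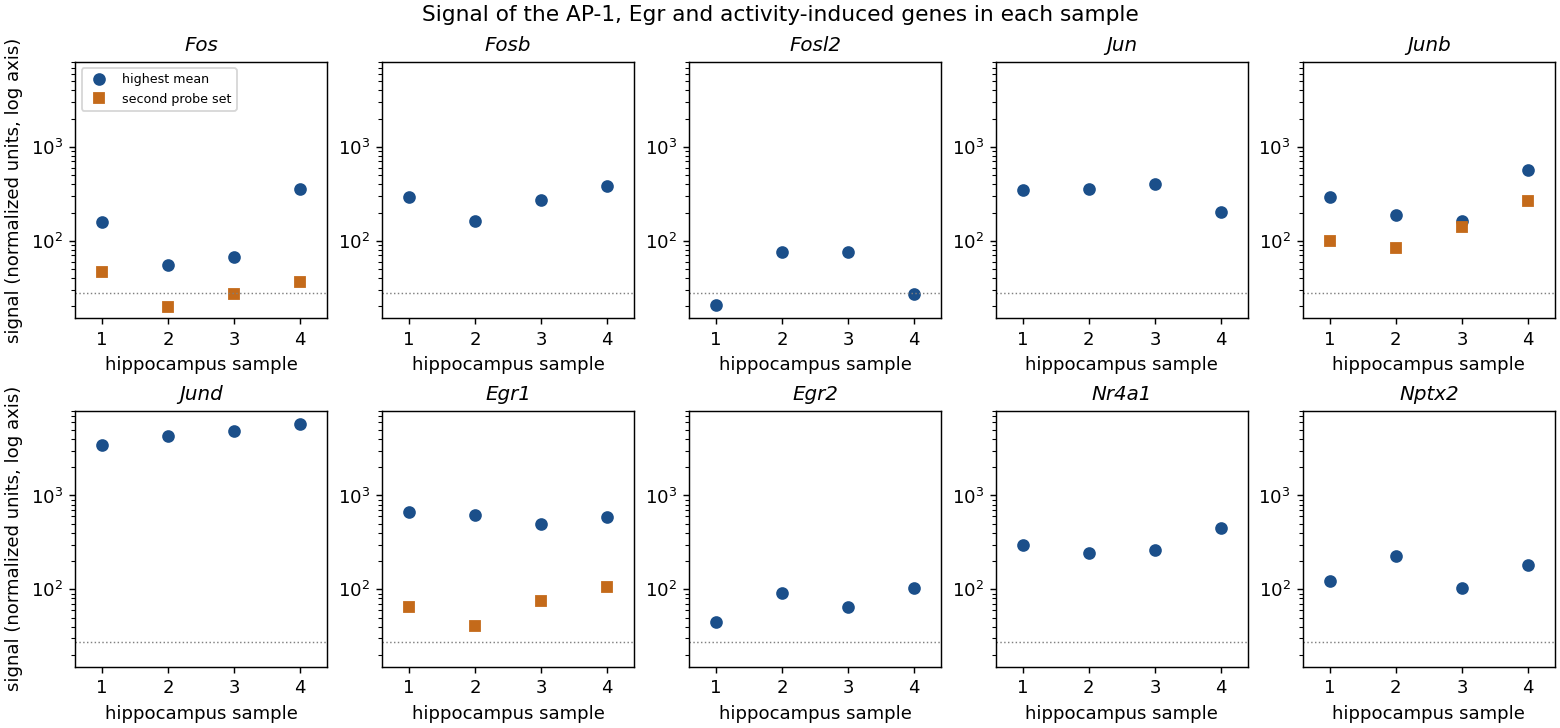
Signal of each gene in hippocampus samples 1 to 4, in normalized array units on a log axis; circles are the probe set with the highest mean, squares the second probe set where there is one, and the dotted line is the floor of 27.7 units. Fos, Fosb, Junb, Jund and Nr4a1 have their highest circle in sample 4, Jun has its lowest there, and Fosl2 is below the floor in samples 1 and 4.

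Egr1, also known as Zif268 and a marker of activity with a substantial resting level in the hippocampus, hardly differed between the samples. Its main probe set gave 664, 625, 496 and 596 units (595 ± 71.9, SD, n = 4), a range of 1.34-fold. This was narrower than that of most analysed probe sets, with 35.8% of them below it. The second Egr1 probe set gave 64.7, 40.9, 75.7 and 107 units, with a range of 2.62-fold, and had its highest value in sample 4, where the main probe set lay 0.013 log2 units above the other samples. The probe sets of Egr1 therefore disagreed on the highest sample, and the second was too dim for analysis. The main probe set's deviation in sample 4 turned to -0.11 when sample 3 was left out.

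Egr2, also known as Krox20, is known for its part in myelination by Schwann cells and is activity-induced in neurons. Its signal was 44.8, 91.35, 64.7 and 104 units, with sample 1 lowest and samples 2 and 4 highest, a range of 2.32-fold. Its mean of 76.1 ± 26.5 units (SD, n = 4) was below the analysed range.

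Nr4a1, also known as Nur77, is an orphan receptor whose activity is set by its own abundance. It gave 294, 246, 261 and 447 units (312 ± 91.8, SD, n = 4). Samples 1 to 3 lay within 0.26 log2 units, and sample 4 was 1.67-fold above their geometric mean. Nptx2 followed another order, with 124, 225, 102 and 182 units (158 ± 55.8, SD, n = 4). Samples 2 and 4 were high and samples 1 and 3 low, and the range was 2.20-fold. Its second-ranking sample was thus the one in which Fos and Junb were highest.

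Measured against probe sets of like signal, the 8 analysed genes were spread more widely at the median, with an SD 1.91 times the trend, against 0.94 for all analysed probe sets. The ratio was 3.16 for Junb, 3.03 for Fos, 2.27 for Jund, 2.01 for Fosb and 1.80 for Jun, and it was 1.57 for both Nptx2 and Nr4a1. Egr1 was the exception, at 0.87. The samples spanned at least 2-fold in 4 of the 8, namely Fos, Junb, Fosb and Nptx2, against 15.2% of the analysed probe sets. Over all 10 genes without the signal filter this held for 6, against 22.6% of probe sets. The genes so added, Fosl2 and Egr2, were too dim to be told from background. Without sample 4 the count was 1 of 7 genes, against 7.36%, and without sample 2 it was 2 of 8, against 11.8%. Fos was analysed only with sample 4, so its ratio and its place among the 4 of 8 are no support.

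None of these spreads passed the test across all probe sets. In limma's one-sided F test of variance against the intensity trend, with Benjamini-Hochberg adjustment over 6210 probe sets, the adjusted p was 0.669 for Junb and 0.695 for Fos. At an unadjusted p under 0.05 the limma test had 2 of the 8 genes, Junb (0.0145) and Fos (0.0172), against 5.62% of the analysed probe sets, and after adjustment 0 of the 8 and 0% of all probe sets. Fos entered this test through its high values, so its place in the count is no support. Without sample 4, where Fos was not analysed, 0 of 7 genes had an unadjusted limma p under 0.05, against 317 of 6211 probe sets, and that of Junb was 0.132. Jund followed with an unadjusted limma p of 0.0538, Fosb with 0.0827 and Jun with 0.117. On simulated data this test missed changes of the size seen for Fos and Junb when they lay in 1 sample, so a p that misses the threshold does not show that a gene was steady. The values of the single genes are given as measured, and none is called variable.

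**Figure D2:**
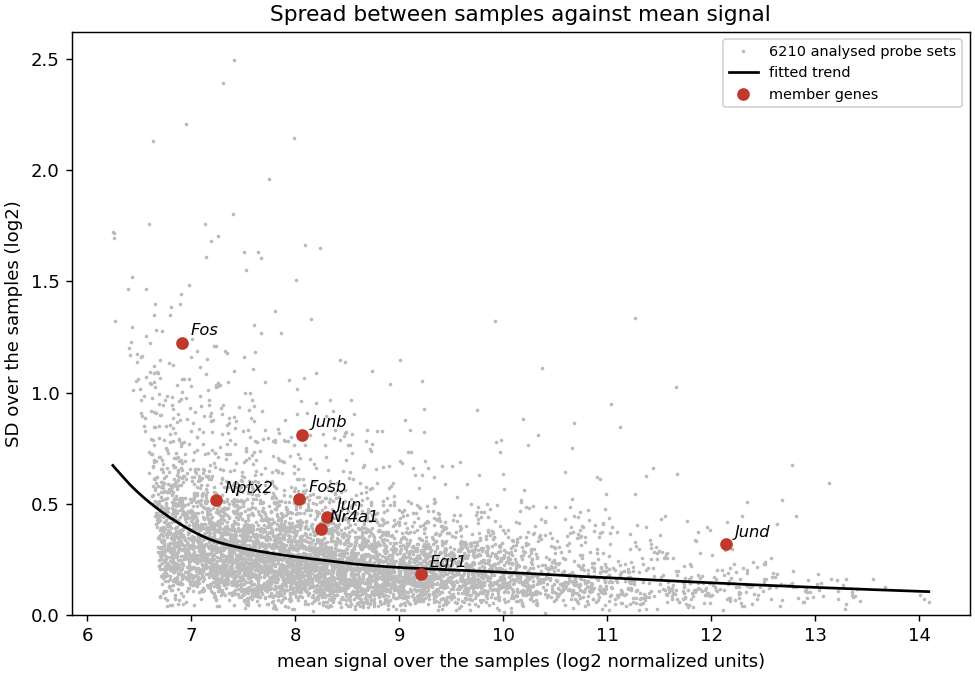
SD over the 4 hippocampus samples (log2) against mean signal (log2 normalized units) for the 6210 analysed probe sets (grey), the fitted trend (black line) and the 8 analysed genes (red). Fos and Junb lie at 3.03 and 3.16 times the trend, and Egr1 at 0.87.

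The likeness of 2 genes was measured as the root mean square difference of their log2 values over the 4 samples, each centred on its mean, since a correlation over so few samples is not informative. Fos and Junb differed by 0.41, and of the 4823 other analysed genes Junb was the nearest to Fos. The relation was not mutual in rank, since Fos ranked 80th from Junb. Among the members the smallest differences were those of Fosb and Nr4a1 (0.26) and of Jund and Nr4a1 (0.28). The largest was that of Fos and Jun (1.41), and Jun ranked 4608th from Fos. Genes that vary little reach a small difference more easily. Fos was analysed only with sample 4, so the nearest genes and ranks that involve it describe its values and are no support.

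After Junb, the genes nearest to Fos were Rnf2 (0.49), a ubiquitin ligase of Polycomb complexes, Apoa5 (0.50), an apolipoprotein gene, Slc44a1 (0.52), a choline transporter, and A4galt (0.54), a glycolipid galactosyltransferase. Those nearest to Junb were Rnf2 (0.17), Slc44a1 (0.24), the small GTPase gene Rab25 (0.25), Ccnt1 (0.26), a cyclin of transcription elongation, and Glb1 (0.26), the lysosomal beta-galactosidase. Rnf2 gave 239, 161, 176.5 and 463 units in samples 1 to 4. All of these genes were highest in sample 4, which follows from picking them by likeness to Fos and Junb. Apoa5 gave 97.1, 58.1, 84.8 and 193 units, so that its mean of 108 passed the filter, at 104, through sample 4. None of the 5 nearest to Junb is a member.

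**Figure D3:**
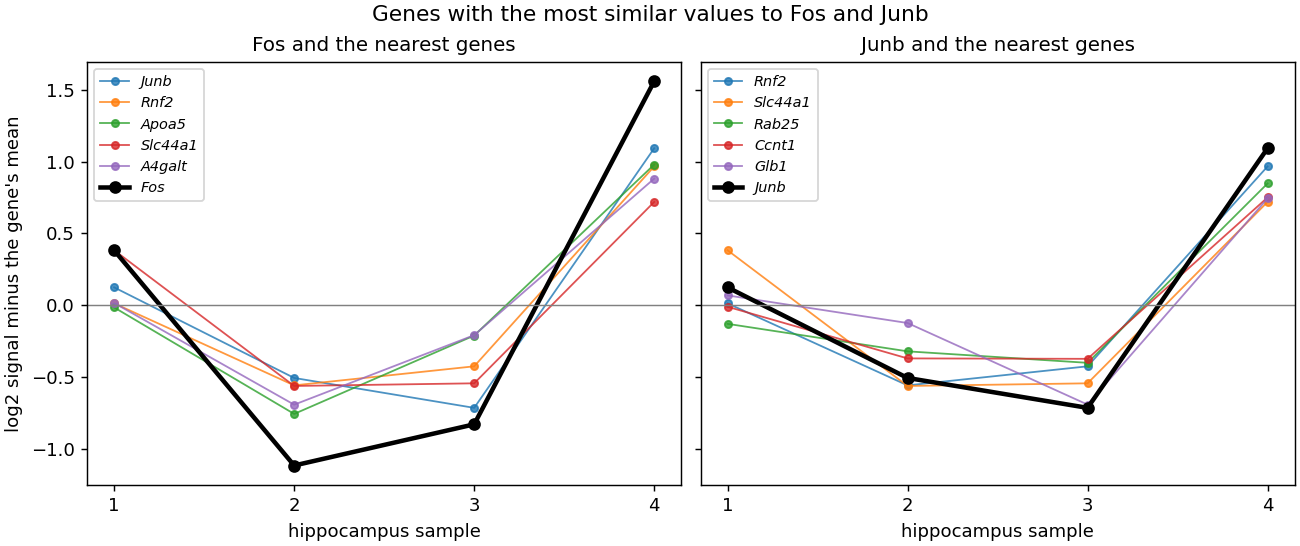
Log2 signal minus the gene's mean in hippocampus samples 1 to 4 for Fos (left, black) and Junb (right, black) with the 5 nearest analysed genes of each in colour; lines join the points of a gene and carry no order. Every gene drawn has its highest point in sample 4, which follows from picking genes by likeness to Fos and Junb. Fos lies the farthest from its mean.

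Of the other activity-induced genes, those bright enough for analysis were mostly higher in sample 4 than in the other samples as well. Of 50 listed, 36 had a probe set and 19 were analysed, and 15 of the 19 exceeded the mean of samples 1 to 3 in sample 4 (52.2% of all probe sets), with a median log2 deviation of 0.34. In samples 1, 2 and 3 the median was -0.11, -0.04 and -0.05. Without the signal filter, the median in sample 4 was lower, at 0.23, against 0 over all probe sets. Most of the 17 genes too dim for analysis did not exceed the mean of samples 1 to 3 there. In sample 4, 10 of the 19 had their highest value (31.1% of all). The span reached 2-fold for 3 of the 19 (15.2% of all probe sets), and 0 passed limma's test after adjustment. The widest ranges were those of Sgk1, a kinase gene that also answers to glucocorticoids, with 439.9, 472, 528 and 1237 units, and of Gadd45g, a growth arrest gene, with 171, 103, 232 and 223 units. Rgs2, a regulator of G protein signalling, was lowest in sample 4 at 81.6 units, against 118 to 176 in samples 1 to 3. Dusp6, the ERK phosphatase, was lowest in sample 3, at 348 units. At the other end, the kinase gene Plk2 gave 3011, 3255, 3340 and 3051 units and the Krüppel-like factor Klf10 gave 346, 364, 329 and 316 units, with ranges of 1.11-fold and 1.15-fold.

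Among the regulators and partners of these factors the median deviation in sample 4 was close to 0. Of 40 listed, 29 had a probe set and 19 were analysed. In sample 4, 7 of the 19 exceeded the mean of samples 1 to 3 (52.2% of all), with a median log2 deviation of -0.05, and 8 had their lowest value there (30.7% of all). Elk1, an ETS partner of SRF at the Fos promoter, gave 250.4, 280.3, 115 and 72.5 units in samples 1 to 4, so that it was lowest in the sample with the highest Fos signal. Mapk9, which encodes a Jun N-terminal kinase, gave 352, 266, 197 and 125 units, whereas Mapk8, the gene of a related kinase, stayed between 468 and 562 units. Nptx1, the pentraxin partner of Nptx2, gave 1074, 1005, 934 and 557 units, and the AMPA receptor subunit gene Gria1 gave 2676, 2256, 3866 and 2095 units. Nptx1 was thus lowest in sample 4, where Nptx2 was the second highest. Map2k1, an ERK pathway kinase, had a range of 1.17-fold. After adjustment 0 of the 19 passed limma's test, and 3 had an unadjusted p under 0.05 (5.62% of all probe sets).

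**Figure D4:**
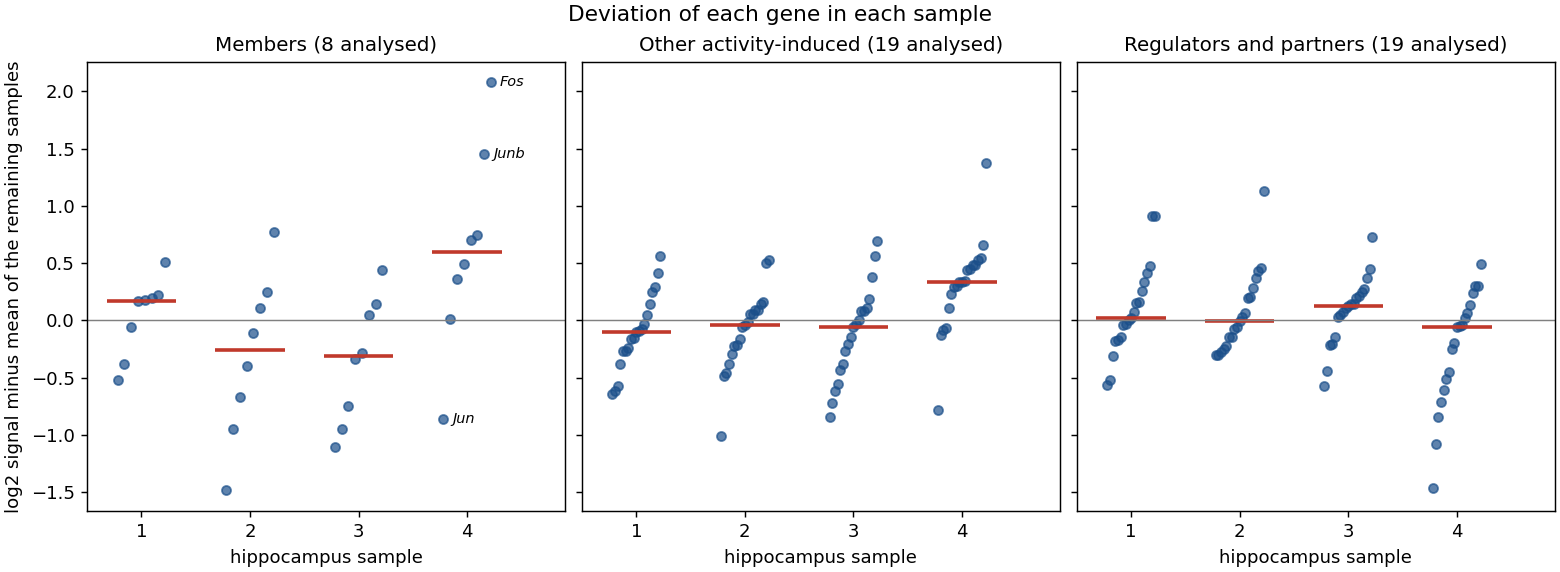
Log2 signal in a hippocampus sample minus that of the remaining samples on average, for the 8 analysed members (left), 19 other activity-induced genes (middle) and 19 regulators and partners (right); each point is a gene and the red bar the median. In sample 4 the medians are 0.60, 0.34 and -0.05, with Fos and Junb at the top and Jun at the bottom of the members.

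Measures of RNA quality and cell content also varied between the samples, and their part in these results was not tested. Control transcripts are read at both ends, and the 3′ over 5′ ratio was highest in sample 4 for 4 of 5 of them, for example 2.03 for beta-actin, against 1.51 to 1.84 in samples 1 to 3. For the transferrin receptor the ratio in sample 4 was at least 2.71, below the 3.36 of sample 3, and its highest sample is not settled. Of 7 analysed neuron markers (8 listed), 1 exceeded the mean of samples 1 to 3 in sample 4, and their summed signal was 15810, 13285, 14068 and 11346 units in samples 1 to 4. The sum of these general neuron markers was thus lowest in the sample with the highest Fos and Junb signals. The sums of principal cell and of interneuron markers were instead lowest in sample 3. In whole tissue fewer cells of a type and less RNA per cell cannot be told apart. Summed markers of astrocytes ranged from 6851 to 7447 units. Those of oligodendrocytes were 7105, 9689, 6993 and 10093 units, those of microglia 2277, 2685, 2217 and 2050.0, those of vessels 868, 698, 588 and 643, and those of meninges 2176, 1732, 2240 and 2445. Markers of choroid plexus (2955, 1584, 1104 and 2196 units) and of red blood cells (14124, 11046, 4525 and 8627 units) were highest in sample 1 and lowest in sample 3. In sample 4, 2 of 5 astrocyte, 4 of 5 oligodendrocyte, 1 of 5 microglia, 1 of 3 vessel, 3 of 3 meningeal, 3 of 3 choroid plexus and 1 of 3 red blood cell markers exceeded the mean of samples 1 to 3. So did 2 of 4 principal cell markers. Over the measured genes these summed to 6455, 6827, 5673 and 6359 units in samples 1 to 4, most of it from Camk2b (3990 to 4955 units). Camk2a, the other kinase subunit gene of excitatory neurons, read 357, 629.7, 321 and 29.4 units, and was 14.2-fold below the geometric mean of the other samples in sample 4, close to the floor (limma adjusted p = 0.356). In sample 4, 3 of 5 interneuron markers exceeded the mean of samples 1 to 3. Over the measured genes they summed to 7284, 8731, 7214 and 7920 units in samples 1 to 4. No measured marker lay below the floor in all 4 samples. Among neuron markers, Snap25, of the synaptic fusion machinery, gave 7326 to 9251 units, while Syt1, the calcium sensor of vesicle release, read 2040 units in sample 1, 1160.2 in sample 2, 718 in sample 3 and 605 in sample 4.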

How the data were processed

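Total RNA of 4 hippocampus samples was read on 1 array each. The authors deposited linear intensities; for the software, background correction and scaling behind them the sources used here give no statement. The mean of each array without its lowest and highest 2% of probe sets was 249.6 to 249.9 units, which shows a common scaling before deposit. Detection calls were not used. With so few arrays the precision is limited.

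Without the 66 controls, 12422 probe sets were quantile normalized (limma 3.58.1, R 4.3.3). Signals in the text are these units. For log2 values, units below the 25th percentile (27.7) were raised to it, and ranges that reach this floor are lower bounds. The brighter 50% of probe sets by mean signal were tested with limma's eBayes functions and a robust intensity trend, on 3 residual and 5.06 prior degrees of freedom, at an adjusted p of 0.05. On simulated data the test recovered very large changes but missed changes in 1 sample as large as those of Fos and Junb. The probe set with the highest mean stands for a gene. Symbols of 10817 of 10833 probe sets with 1 symbol came from RefSeq (GRCm38.p6) by Entrez identifier. The members and gene lists were chosen with earlier results of these data known. Named were all members, the 4 widest and 2 narrowest analysed genes of each other list, the 5 genes nearest to Fos and to Junb, and marker genes. Alternatives covered scaling, floor, filter, the choice of probe set, the trend and each sample left out.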

Additional observations from a re-analysis of the deposited data

Results flagged for a closer look

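Of 52 probe sets of named genes checked, 3 had a highest or lowest sample far from the rest, measured as its gap to the nearest sample over the whole range and read against Dixon's 95% critical value. Chance flags about 1 in 20 such groups when they are not chosen by their values. Of those flagged, Sgk1 was named for its wide range and Rab25 for its likeness to Junb, so the rate does not hold for them. The kinase gene Sgk1 had a ratio of 0.890, with sample 4 far above the others. Rab25, one of the genes nearest to Junb, had 0.850, with 294 units in sample 4, against 124 to 149.6 in the others. The collagen gene Col1a1, a meningeal marker, had 0.924, with 319 units in sample 4, against 182 to 192 in the others. None of the 13 probe sets of the members exceeded the value, and the largest ratio among them was that of Nr4a1 at 0.760.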

How the results depend on the processing

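No paired analysis was possible because the samples form 1 group. The number of probe sets past the variance test was 0 under every alternative run, including a trend that was not robust, with a smallest adjusted p between 0.0536 and 0.668. The median deviation of the members in sample 4 stayed between 0.59 and 0.71, the highest with median scaling, which also put the median of all probe sets in sample 4 at 0.11. With a sample left out, it was 0.59 to 0.66 in sample 4, -0.10 to 0.22 in sample 1 (-0.098 without sample 2 and -0.024 without sample 3), -0.40 to -0.043 in sample 2 and -0.41 to -0.046 in sample 3. With no filter, 6 of 10 members had a range of at least 2-fold, against 22.6% of probe sets. With the filter at the 25th percentile of means the count was also 6 of 10, against 29.2%. With a sample left out it was 4 of 8 without sample 1 (11.2%), 2 of 8 without sample 2 (11.8%) and 3 of 8 without sample 3 (11.1%). It was 1 of 7 without sample 4 (7.36%), which also removed Fos from the analysed genes. With the floor at the 40th percentile the range of Fosl2 was 0.27 log2 units. For the other activity-induced genes, whose median lay close to 0 in samples 2 and 3, it turned to 0.054 in sample 2 with the filter at the 25th percentile of means, and with a sample left out it spanned -0.16 to 0.039 in sample 2 and -0.12 to 0.042 in sample 3. In sample 4 it was 0.25 to 0.33 with a sample left out, and 0.23 with no filter. For the regulators and partners, the median turned to 0.010 in sample 2 with the deposited values, to 0.028 there with the median over probe sets, and to 0.022 in sample 4 with median scaling. With a sample left out it spanned -0.047 to 0.19 in sample 1 and -0.031 to 0.095 in sample 2. Of the 5 genes nearest to Fos and of the 5 nearest to Junb, at least 4 were shared under each alternative scaling and floor. Genes with low signal, here Fosl2, Egr2 and the second probe sets of Fos and Egr1, cannot be told from background without detection calls.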
